A study of Homo sapiens with 9 samples.

Results

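The genes described here are the core machinery of DNA replication and of nucleotide supply, 52 genes in all, chosen by symbol from a fixed list and found once each among the 60603 genes of the table. They cover the origin recognition complex (6 genes), origin licensing (3 genes), the MCM2-7 helicase core (6 genes), helicase activation (8 genes), the polymerases and primase (9 genes), the sliding clamp and its loader (6 genes), single-stranded DNA binding (3 genes), lagging strand maturation (2 genes), fork protection (2 genes), nucleotide supply (5 genes) and chromatin factors of S phase (2 genes). RNA was measured in TC32, an established Ewing sarcoma cell line labelled as wild type that carries the EWS::FLI1 fusion, 30 h after plating. An siRNA over the breakpoint of the fusion was given in siEF and a nonspecific one in siNEG, the third group is labelled media, and each group has 3 biological replicates. All 9 libraries come from this single cell line and share 1 batch label.

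A dividing cell prepares its origins before S phase. The origin recognition complex, CDC6 and CDT1 load the MCM2-7 ring onto DNA, geminin (GMNN) holds CDT1 back, and the kinase CDC7 with DBF4, together with CDC45, the GINS complex and MCM10, turns the ring into a moving helicase. DNA polymerases alpha, delta and epsilon then copy the template, and the RFC complex loads the PCNA clamp. Ribonucleotide reductase, thymidylate synthase and thymidine kinase supply deoxynucleotides. Many of these genes are textbook targets of the E2F transcription factors, which act at the entry into S phase.

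Libraries held between 20727706 and 33134581 expected counts, the lowest in siEF replicate 2. FLI1, whose sequence forms the 3′ part of the fusion, was at 38.4, 35.5 and 39.3 CPM in siEF, 48.6, 48.5 and 47.99 CPM in siNEG and 59.5, 56.2 and 57.9 CPM in media (CPM, counts per library scaled to a common size, with replicates 1, 2 and 3 in order here and below). All 6 Ewing sarcoma markers were detected in every library. In edgeR at an adjusted P under 0.01, 5 of them were lower in siEF than in siNEG, and CD99 was higher at 0.23. By this rule 31.7% of all tested genes were lower and 33.6% higher. The log2 fold changes of the 5 were -2.97 for NR0B1, -2.29 for STEAP1, -1.44 for NKX2-2, -1.11 for PRKCB and -0.35 for FLI1. At the same threshold 4 of the 6 were lower in siNEG than in media, FLI1 among them at -0.26, against 5.96% of all tested genes. Of 8 markers of leukocytes, epithelium, endothelium and muscle, PTPRC, CD3E, VWF and MYOD1 were too low to be tested, and EPCAM, CDH1, DES and PECAM1 had group means of at most 4.41 CPM. All 4 differed between siEF and siNEG (adjusted P under 0.01, edgeR), where 31.7% of all tested genes were lower and 33.6% higher. CDH1 had 28, 16 and 27 counts in siEF and 0 in each siNEG library, and EPCAM had 13, 9 and 9 counts in siEF, 1, 3 and 0 in siNEG and 13, 10 and 13 in media. DES was higher in siEF with a log2 fold change of 3.41, and PECAM1 was lower with -1.22. Summed over the 8 markers, libraries held 5.39 to 5.98 CPM of the unscaled totals in siEF, 3.85 to 4.76 in siNEG and 4.77 to 5.89 in media, and their part in the results was not tested. The 10 most abundant genes took between 12.3% and 12.9% of the counts of siEF libraries, and 5.78% to 6.62% of those of siNEG and media libraries. The part of this difference in the fold changes was not tested beyond other scalings and ratios within a library.

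To see what these genes have near their starts, the RefSeq promoters (GRCh38.p14, 250 bases before to 50 bases after the start) of 45 members were searched on both strands for the E2F letters TTTCCCGC, TTTGGCGC, TTTCGCGC or TTTGCCGC. At least 1 of these was present for 24 of the 45 genes (53.3%), against 3.31% of all 35116 promoters and 6.51% of the 10943 tested genes with a promoter. A gene was counted if any of its promoters matched, so the share of tested genes is the like measure and that of single promoters is not. To show these letters in place, the stretch around them is given for the member with the largest fall among those with a match in each role, 5′ to 3′, with the matching letters in capitals. Overlapping matches on the opposite strands are merged into 1 run.
ORC3 (chr6:87590097-87590134, plus strand): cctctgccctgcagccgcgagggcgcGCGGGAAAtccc
CDC6 (chr17:40287875-40287904, plus strand): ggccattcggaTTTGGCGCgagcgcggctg
MCM6 (chr2:135876496-135876621, minus strand): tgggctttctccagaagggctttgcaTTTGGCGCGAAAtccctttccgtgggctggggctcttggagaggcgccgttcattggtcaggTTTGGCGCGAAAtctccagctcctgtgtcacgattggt
GINS2 (chr16:85688955-85689011, minus strand): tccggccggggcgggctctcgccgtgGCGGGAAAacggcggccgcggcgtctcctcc
POLA2 (chr11:65261883-65261942, plus strand): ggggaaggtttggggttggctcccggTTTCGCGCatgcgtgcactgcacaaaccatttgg
PCNA (chr20:5126648-5126707, minus strand): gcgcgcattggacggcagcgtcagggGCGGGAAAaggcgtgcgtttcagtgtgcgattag
LIG1 (chr19:48170425-48170484, minus strand): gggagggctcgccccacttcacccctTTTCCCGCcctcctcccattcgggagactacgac
CLSPN (chr1:35769965-35769994, minus strand): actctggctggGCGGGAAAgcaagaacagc
TYMS (chr18:657588-657647, plus strand): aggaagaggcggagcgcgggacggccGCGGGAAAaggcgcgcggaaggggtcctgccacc
UHRF1 (chr19:4909461-4909500, plus strand): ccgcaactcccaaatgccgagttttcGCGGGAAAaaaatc
MCM6 held the letters TTTGGCGC in 2 copies, each followed by a match on the other strand that shares 4 of its bases. The sequences of ORC3, GINS2, PCNA, CLSPN, TYMS and UHRF1 share the letters GCGGGAAA, the reverse complement of TTTCCCGC. The CCAAT box of NF-Y (CCAAT, either strand) was present for 27 of the 45 genes, against 43.2% of the tested genes, and the ETS letters CCGGAAGT for 3 genes (6.67%), against 9.52%. The letters GGAAGGAA, the unit pair of the microsatellites that EWS::FLI1 binds, occurred for 1 member, PRIM2, against 4.93% of the tested genes, and TTTGAA, the CHR element of mitotic genes, for 3 members (6.67%) against 13.9%. GGGCGG, the letters of SP factors, stood in 77.8% of the members' promoters and in 75.9% of those of the tested genes. A match of letters is a description of the sequence and not a measured binding site, and sites outside this window were not searched. The paper names the members ATAD2 and RFC2 among established tandem sites of EWS::FLI1 and E2F. ATAD2 was not among the 45 genes searched, and RFC2 held none of the E2F letters, the ETS letters or GGAAGGAA.

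The first comparison asked how these genes differed between the siRNA over the breakpoint and the nonspecific siRNA. With a single siRNA over the breakpoint, loss of the fusion and other effects of that sequence cannot be told apart. All 52 genes passed the filter on low counts. Of them, 51 were lower in siEF than in siNEG at an adjusted P under 0.01 by the quasi-likelihood test of edgeR (over all 16093 genes tested, Benjamini-Hochberg adjustment), 0 were higher, and 1, RFC1, did not pass. By the same rule 31.7% of all tested genes were lower and 33.6% higher. With the further cut-off of a log2 fold change below -1, 40 of the 52 genes were called lower (76.9%), against 11.7% of all tested genes, while 0 members and 17.1% of all genes were above 1. The siEF libraries all lay below the siNEG libraries for 51 members, which was so for 37.1% of all tested genes. The median log2 fold change of the members was -1.43, leaving 37.2% of the siNEG level, beside a median of 0.046 over all tested genes. Together the 52 genes took 0.252% ± 0.00949 (SD, n = 3) of all counts in siEF, 0.780% ± 0.0110 (SD, n = 3) in siNEG and 0.764% ± 0.0160 (SD, n = 3) in media. In RNA of whole cultures, fewer cells in S phase and less of these RNAs per cell cannot be told apart.

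**Figure D1:**
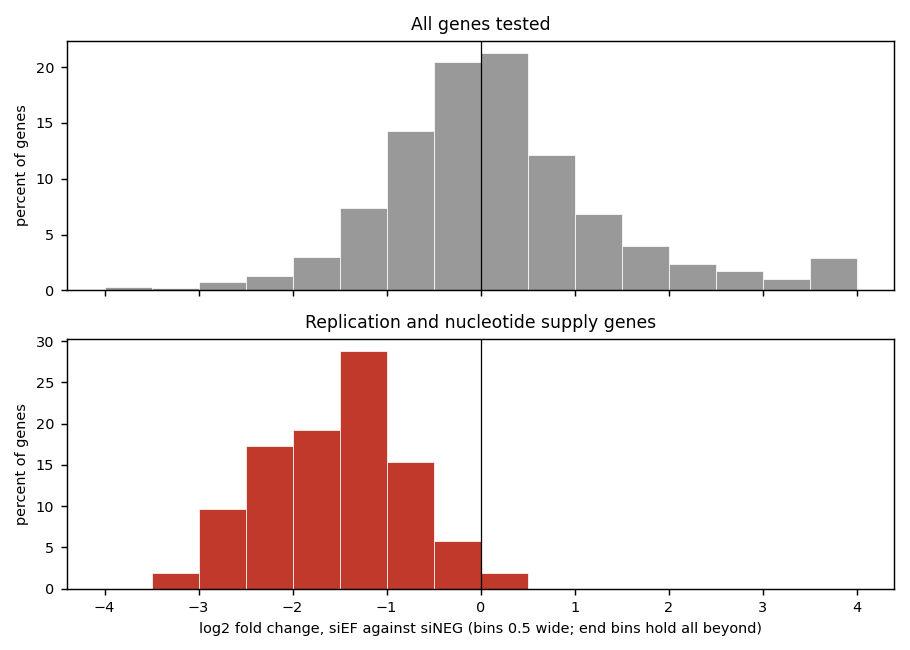
Percent of genes (y axis) by log2 fold change of siEF against siNEG (x axis, bins of 0.5, end bins open) for all 16093 genes tested and for the 52 replication and nucleotide supply genes. All genes spread to both sides of 0, while 51 of the 52 members lie below 0.

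The origin recognition complex, which marks origins, moved unevenly. All 6 subunits were lower in siEF (adjusted P between 1.30e-12 and 0.00265, edgeR's quasi-likelihood test), and 3 of them passed the fold cut-off. ORC6 (chromosome 16, 46689643 to 46698394, GRCh38 and GENCODE 44 here and below) was at 15.03, 15.5 and 14.4 CPM in siEF, 48.9, 44.8 and 47.5 CPM in siNEG and 43.4, 41.6 and 48.02 CPM in media, for a log2 fold change of -1.65 (SE 0.07) between siEF and siNEG. ORC1, the subunit whose level follows the cell cycle, was at 32.6, 35.3 and 32.8 CPM in siEF against 83.6, 83.8 and 81.8 CPM in siNEG and 78.9, 82.7 and 78.4 CPM in media (log2 fold change against siNEG -1.31, SE 0.05). ORC2 was at 66.9, 67.5 and 63.9 CPM in siNEG, 65.2, 58.3 and 68.1 CPM in media and 31.3, 26.7 and 27.5 CPM in siEF, which gave a log2 fold change of -1.21 (SE 0.07) against siNEG. For these 3 subunits, the siEF libraries lay well under the other 6. ORC4 had the smallest fall, at 38.05, 39.8 and 37.1 CPM in siEF, 43.8, 48.04 and 43.02 CPM in siNEG and 42.97, 45.8 and 45.3 CPM in media, for a log2 fold change of -0.23 (SE 0.06) between siEF and siNEG. ORC3 was at 53.2, 53.2 and 51.3 CPM in siEF against 63.3, 64.5 and 60.4 CPM in siNEG and 54.1, 56.2 and 53.9 CPM in media (log2 fold change against siNEG -0.26, SE 0.05). ORC5 had a log2 fold change of -0.57 (SE 0.06). ORC3 and ORC4 thus kept 83.7% and 85.1% of the siNEG level, and ORC6 31.8%. ORC4 no longer passed with upper quartile scaling, where it was -0.15 on the log2 scale (adjusted P = 0.0397, edgeR), or without siEF replicate 1 or 3 or siNEG replicate 2, where its adjusted P was 0.0113, 0.0155 and 0.0178 (edgeR). Per kilobase of the canonical transcript, ORC6 was the most abundant subunit in siNEG (29.1 CPM per kb) and in media (27.4 CPM per kb), and ORC3 in siEF (21.04 CPM per kb). ORC3 and ORC1 lay next to each other in siNEG, at 25.1 and 26.6 CPM per kb, and apart in siEF, at 21.04 and 10.7 CPM per kb.

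Among the licensing factors, CDC6, the ATPase that helps load the helicase (chromosome 17, 40287879 to 40304657), was at 23.1, 24.98 and 22.9 CPM in siEF, 139, 146 and 144 CPM in siNEG and 141, 144 and 139.7 CPM in media, for a log2 fold change of -2.60 (SE 0.05) between siEF and siNEG. All 3 siEF libraries held less than any control library by a wide margin, 16.5% of the siNEG level. CDT1, the partner that brings the MCM ring, was at 25.8, 29.2 and 27.1 CPM in siEF against 48.5, 55.8 and 58.7 CPM in siNEG and 58.4, 53.3 and 46.97 CPM in media (log2 fold change against siNEG -0.99, SE 0.09), just short of the fold cut-off. GMNN, the inhibitor of CDT1, was at 91.4, 82.5 and 79.98 CPM in siNEG, 70.8, 78.1 and 79.1 CPM in media and 22.7, 23.6 and 25.4 CPM in siEF, which gave a log2 fold change of -1.82 (SE 0.07) against siNEG. The inhibitor had the larger fall, and the log2 ratio of CDT1 to GMNN counts within a library was 0.19 ± 0.108 in siEF, -0.64 ± 0.244 in siNEG and -0.53 ± 0.237 in media (SD, n = 3). Adjusted P values of the 3 genes lay between 2.60e-16 and 2.33e-08 (edgeR's quasi-likelihood test).

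All 6 subunits of the MCM2-7 helicase core were lower in siEF and past the fold cut-off (adjusted P between 2.20e-17 and 2.85e-12, edgeR's quasi-likelihood test), with a median log2 fold change of -1.89. MCM4 had the largest fall of all 52 genes, at 71.9, 70.4 and 67.6 CPM in siEF, 583, 602 and 616 CPM in siNEG and 601, 568 and 567 CPM in media, for a log2 fold change of -3.10 (SE 0.05) between siEF and siNEG. Only 11.7% of its siNEG level remained. MCM6 (chromosome 2, 135839626 to 135876443), whose promoter is shown above, was at 70.2, 78.6 and 69.3 CPM in siEF against 316, 315 and 312 CPM in siNEG and 322, 319 and 302 CPM in media (log2 fold change against siNEG -2.11, SE 0.05). MCM2 was at 225, 247 and 256 CPM in siNEG, 248, 242 and 227 CPM in media and 62.6, 66.6 and 59.8 CPM in siEF, which gave a log2 fold change of -1.95 (SE 0.06) against siNEG. MCM3 was at 87.4, 94.2 and 85.4 CPM in siEF, 322, 321 and 313 CPM in siNEG and 358, 341 and 328 CPM in media, for a log2 fold change of -1.84 (SE 0.05) between siEF and siNEG. In each of these the 6 control libraries lay above siEF, and for MCM3 the siNEG libraries all lay below those of media. MCM5 was at 52.5, 53.6 and 52.9 CPM in siEF against 165, 170.0 and 179 CPM in siNEG and 202, 186 and 169 CPM in media (log2 fold change against siNEG -1.70, SE 0.06). MCM7 fell least, at 547, 559 and 566 CPM in siNEG, 588, 537 and 503 CPM in media and 227, 245 and 226 CPM in siEF, which gave a log2 fold change of -1.26 (SE 0.05) against siNEG. Since the 6 subunits form 1 ring, their levels were also compared per kilobase of the canonical transcript. MCM7 was the most and MCM5 the least abundant subunit in each group, with a ratio between them of 6.15 in siEF, 4.55 in siNEG and 4.10 in media. MCM4 was second to MCM7 in siNEG (148 CPM per kb) and in media (143 CPM per kb), and in siEF (17.2 CPM per kb) it stood between MCM2 (18.3 CPM per kb) and MCM5 (15.3 CPM per kb). MCM7 shares exon sequence with MIR93 on the same strand in the annotation.

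**Figure D2:**
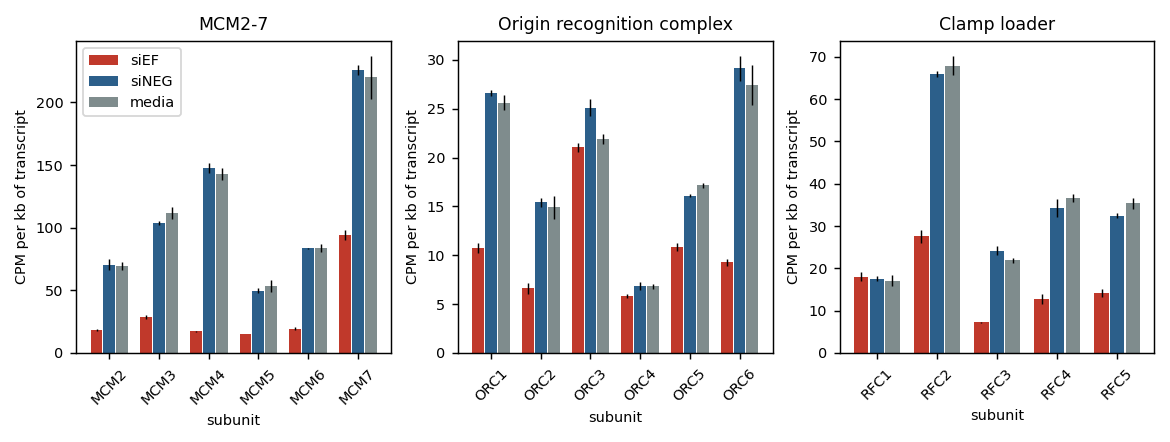
Mean level per kilobase of canonical transcript (y axis, CPM per kb, bars from 0, error bars SD, n = 3) of the subunits of MCM2-7, the origin recognition complex and the clamp loader in siEF, siNEG and media. MCM4 is second to MCM7 in both control groups and stands between MCM2 and MCM5 in siEF, and RFC1 lies at 18.02, 17.6 and 17.1 CPM per kb.

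The 8 factors that activate the helicase were all lower and past the fold cut-off (adjusted P between 1.43e-15 and 6.44e-11, edgeR's quasi-likelihood test). CDC45, which rides with the MCM ring (chromosome 22, 19479457 to 19520612), was at 7.91, 7.98 and 7.99 CPM in siEF, 67.9, 61.9 and 59.8 CPM in siNEG and 78.01, 67.5 and 68.1 CPM in media, for a log2 fold change of -2.99 (SE 0.08) between siEF and siNEG. The siEF libraries were close to each other and kept 12.6% of the siNEG level. MCM10, needed for origin firing, was at 17.8, 17.4 and 15.3 CPM in siEF against 104, 104 and 101 CPM in siNEG and 101, 105 and 104 CPM in media (log2 fold change against siNEG -2.62, SE 0.06). GINS2 was at 39.8, 33.8 and 34.7 CPM in siNEG, 40.9, 37.4 and 36.3 CPM in media and 6.68, 6.95 and 8.33 CPM in siEF, which gave a log2 fold change of -2.29 (SE 0.09) against siNEG. The GINS complex has 4 subunits, and GINS2 had the largest fall of them. GINS1 was at 29.4, 27.3 and 27.2 CPM in siEF, 102, 96.8 and 104 CPM in siNEG and 94.5, 87.7 and 102 CPM in media, for a log2 fold change of -1.85 (SE 0.06) between siEF and siNEG. GINS4 was at 21.9, 23.9 and 20.9 CPM in siEF against 68.3, 71.5 and 70.2 CPM in siNEG and 65.3, 68.2 and 66.2 CPM in media (log2 fold change against siNEG -1.66, SE 0.06). GINS3 was at 29.03, 29.3 and 29.7 CPM in siNEG, 28.1, 31.3 and 30.1 CPM in media and 11.1, 10.8 and 10.9 CPM in siEF, which gave a log2 fold change of -1.42 (SE 0.07) against siNEG. The siEF and siNEG libraries did not overlap for any of the 4. CDC7, the kinase that fires origins, was at 16.4, 14.1 and 14.3 CPM in siEF, 45.4, 41.7 and 40.5 CPM in siNEG and 33.05, 34.1 and 39.5 CPM in media, for a log2 fold change of -1.51 (SE 0.08) between siEF and siNEG. DBF4, its activating subunit, fell least of the group, at 29.9, 27.97 and 29.5 CPM in siEF against 69.8, 73.6 and 66.9 CPM in siNEG and 61.9, 66.1 and 72.3 CPM in media (log2 fold change against siNEG -1.27, SE 0.07). The log2 ratio of DBF4 to CDC7 was 0.96 ± 0.089 in siEF and 0.72 ± 0.099 in siNEG, and in media it was 0.91 ± 0.041 (SD, n = 3), so that the siEF ratios did not overlap those of siNEG but did overlap those of media.

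Of the 9 polymerase and primase genes, all were lower and 6 passed the fold cut-off (adjusted P between 8.41e-13 and 1.23e-05, edgeR's quasi-likelihood test). POLA2, the regulatory subunit of polymerase alpha (chromosome 11, 65261913 to 65305959), was at 8.53, 13.03 and 10.1 CPM in siEF, 59.01, 58.7 and 61.3 CPM in siNEG and 64.9, 64.98 and 60.3 CPM in media, for a log2 fold change of -2.52 (SE 0.10) between siEF and siNEG. POLE2, the second subunit of polymerase epsilon, was at 3.69, 4.36 and 3.22 CPM in siEF against 16.6, 16.2 and 16.3 CPM in siNEG and 16.7, 15.04 and 16.6 CPM in media (log2 fold change against siNEG -2.14, SE 0.11), the lowest level of the 52 genes. They kept 17.4% and 22.7% of their siNEG levels. PRIM1, the catalytic primase subunit, was at 54.1, 53.9 and 51.1 CPM in siNEG, 50.8, 48.2 and 55.1 CPM in media and 19.1, 16.1 and 18.6 CPM in siEF, which gave a log2 fold change of -1.56 (SE 0.07) against siNEG. POLD1, the catalytic subunit of polymerase delta, was at 30.9, 35.7 and 30.95 CPM in siEF, 83.4, 83.8 and 87.2 CPM in siNEG and 95.5, 95.2 and 83.4 CPM in media, for a log2 fold change of -1.39 (SE 0.07) between siEF and siNEG. POLD3 was at 27.6, 29.1 and 25.9 CPM in siEF against 70.6, 62.7 and 68.7 CPM in siNEG and 63.7, 60.9 and 66.5 CPM in media (log2 fold change against siNEG -1.29, SE 0.07). For these genes media and siNEG libraries were close and siEF stood apart. POLA1, the catalytic subunit of polymerase alpha, was at 111, 115 and 113 CPM in siNEG, 102, 108 and 111 CPM in media and 54.2, 50.8 and 50.97 CPM in siEF, which gave a log2 fold change of -1.12 (SE 0.05) against siNEG. PRIM2, the large primase subunit, fell least, at 35.8, 36.5 and 37.6 CPM in siEF, 49.6, 48.2 and 45.9 CPM in siNEG and 46.96, 49.4 and 50.4 CPM in media, for a log2 fold change of -0.39 (SE 0.06) between siEF and siNEG. POLD2, which passed the fold cut-off against media alone, was at 79.2, 76.5 and 69.2 CPM in siEF against 144, 138 and 147 CPM in siNEG and 176, 155 and 145 CPM in media (log2 fold change against siNEG -0.93, SE 0.07). POLE, the catalytic subunit of polymerase epsilon, had a log2 fold change of -0.66 (SE 0.05). Subunits of 1 enzyme had unequal fold changes. The log2 ratio of POLE to POLE2 was 4.63 ± 0.130 in siEF and 3.16 ± 0.062 in siNEG, and that of POLA1 to PRIM1 was 1.54 ± 0.108 in siEF and 1.09 ± 0.051 in siNEG (SD, n = 3). PRIM2 has a named pseudogene copy, PRIM2BP, so its value is uncertain. PRIM1 shares exons with NACA on the same strand in the annotation.

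PCNA, the sliding clamp (chromosome 20, 5114953 to 5126626), was at 68.8, 69.7 and 62.4 CPM in siEF, 325, 324 and 321 CPM in siNEG and 343, 335 and 333 CPM in media, for a log2 fold change of -2.27 (SE 0.05) between siEF and siNEG. It kept 20.7% of the siNEG level. The clamp loader is built from RFC1 to RFC5, and 4 of these 5 were lower. RFC3 was at 16.6, 16.9 and 16.8 CPM in siEF against 54.1, 58.5 and 54.5 CPM in siNEG and 51.2, 49.02 and 51.3 CPM in media (log2 fold change against siNEG -1.73, SE 0.06). RFC4 was at 49.5, 47.4 and 43.8 CPM in siNEG, 49.96, 51.4 and 48.6 CPM in media and 19.3, 15.97 and 16.9 CPM in siEF, which gave a log2 fold change of -1.43 (SE 0.07) against siNEG. In both, the siEF libraries lay far below all others. RFC2 was at 44.4, 49.4 and 45.6 CPM in siEF, 112, 111 and 109.8 CPM in siNEG and 119, 114 and 111 CPM in media, for a log2 fold change of -1.26 (SE 0.05) between siEF and siNEG. RFC5 was at 30.9, 31.3 and 27.4 CPM in siEF against 69.5, 67.99 and 67.2 CPM in siNEG and 72.3, 77.5 and 73.5 CPM in media (log2 fold change against siNEG -1.19, SE 0.06). RFC1, the large subunit that loads PCNA, was the exception, at 83.3, 88.8 and 84.9 CPM in siNEG, 75.8, 86.1 and 87.9 CPM in media and 93.1, 83.5 and 86.7 CPM in siEF, which gave a log2 fold change of 0.036 (SE 0.06) against siNEG. Its groups overlapped, and its adjusted P was 0.613 (edgeR's quasi-likelihood test). The log2 ratio of RFC1 to RFC3 was 2.38 ± 0.096 in siEF, 0.62 ± 0.018 in siNEG and 0.72 ± 0.134 in media (SD, n = 3), a pair chosen after the values were seen. Per kilobase of transcript, RFC1 was the lowest of the 5 in siNEG (17.6 CPM per kb) and second to RFC2 in siEF (18.02 against 27.6 CPM per kb). RFC4 overlaps exons of EIF4A2 on the opposite strand, and without a stated strand setting the reads of the 2 genes cannot be told apart there.

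RPA, the trimer that coats single-stranded DNA, fell together and by moderate amounts. RPA1 (chromosome 17, 1829702 to 1900082) was at 119, 116 and 117 CPM in siEF, 225, 238 and 240.4 CPM in siNEG and 227, 226 and 215 CPM in media, for a log2 fold change of -0.999 (SE 0.04) between siEF and siNEG. RPA3 had a log2 fold change of -0.89 (SE 0.08). RPA2 fell least, at 60.4, 64.8 and 57.4 CPM in siEF against 114, 103 and 104 CPM in siNEG and 117, 112 and 117 CPM in media (log2 fold change against siNEG -0.82, SE 0.06). None of the 3 passed the fold cut-off, and all passed the test (adjusted P between 3.09e-12 and 2.97e-08, edgeR's quasi-likelihood test). Lagging strand maturation was split between its 2 genes. FEN1, the flap nuclease (chromosome 11, 61792911 to 61797238), was at 140.2, 145 and 156 CPM in siNEG, 155, 153 and 145 CPM in media and 30.9, 29.97 and 27.6 CPM in siEF, which gave a log2 fold change of -2.32 (SE 0.06) against siNEG. LIG1, the ligase that seals Okazaki fragments, was at 68.9, 72.2 and 69.8 CPM in siEF, 116, 116 and 117 CPM in siNEG and 129, 118 and 113 CPM in media, for a log2 fold change of -0.73 (SE 0.05) between siEF and siNEG. FEN1 kept 20.03% and LIG1 60.5% of the siNEG level. At the fork itself, CLSPN, the checkpoint adaptor claspin (chromosome 1, 35720218 to 35769978), was at 17.7, 18.3 and 16.8 CPM in siEF against 126, 132 and 137 CPM in siNEG and 144, 131 and 153 CPM in media (log2 fold change against siNEG -2.91, SE 0.07). TIPIN, the partner of TIMELESS, was at 29.4, 29.4 and 28.7 CPM in siNEG, 30.5, 28.5 and 29.7 CPM in media and 6.40, 6.46 and 5.96 CPM in siEF, which gave a log2 fold change of -2.22 (SE 0.07) against siNEG. Both were past the fold cut-off (adjusted P between 1.27e-15 and 8.36e-14, edgeR's quasi-likelihood test), and CLSPN had the third largest fall of the 52 genes, after MCM4 and CDC45.

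All 5 genes of nucleotide supply were lower and past the fold cut-off (adjusted P between 3.19e-16 and 3.14e-09, edgeR's quasi-likelihood test). RRM2, the small subunit of ribonucleotide reductase (chromosome 2, 10120698 to 10211725), was at 157, 157 and 150.4 CPM in siEF, 652, 660.1 and 643 CPM in siNEG and 677, 664 and 646 CPM in media, for a log2 fold change of -2.08 (SE 0.04) between siEF and siNEG. RRM1, the large subunit, was at 167, 174 and 162 CPM in siEF against 368, 372 and 375 CPM in siNEG and 357, 373 and 343 CPM in media (log2 fold change against siNEG -1.14, SE 0.04). In the controls RRM2 had more reads than RRM1 and in siEF fewer: the log2 ratio of RRM2 to RRM1 counts was -0.12 ± 0.029 in siEF, 0.81 ± 0.027 in siNEG and 0.89 ± 0.049 in media (SD, n = 3). TYMS, thymidylate synthase, was at 209, 200.2 and 203 CPM in siNEG, 208, 212 and 201 CPM in media and 81.4, 86.8 and 76.1 CPM in siEF, which gave a log2 fold change of -1.33 (SE 0.05) against siNEG. TK1, the cytosolic thymidine kinase, was at 46.5, 50.7 and 39.4 CPM in siEF, 94.3, 102 and 107 CPM in siNEG and 117, 114 and 96.6 CPM in media, for a log2 fold change of -1.16 (SE 0.09) between siEF and siNEG. DUT, which removes dUTP, had the smallest fall, at 62.5, 59.3 and 60.1 CPM in siEF against 125, 124 and 119 CPM in siNEG and 125, 126 and 126 CPM in media (log2 fold change against siNEG -1.02, SE 0.05). TYMS overlaps exons of ENOSF1 on the opposite strand. Named pseudogenes exist for 14 of the 52 genes, 8 for DUT, 3 each for PCNA, RRM2, RPA2 and DBF4 and 2 each for TYMS and RPA3, and reads shared with these copies leave the counts uncertain. Exons on the same strand are shared by 7 members, FEN1 with FADS2 among them, and on the opposite strand by 22. The 2 chromatin factors of S phase fell alike. UHRF1, which brings DNMT1 to replicated DNA (chromosome 19, 4903080 to 4962154), was at 248, 256 and 236 CPM in siNEG, 278, 272 and 263 CPM in media and 57.2, 58.2 and 58.2 CPM in siEF, which gave a log2 fold change of -2.09 (SE 0.05) against siNEG. ATAD2, a bromodomain ATPase, was at 96.04, 89.2 and 90.7 CPM in siEF, 389, 394 and 379.8 CPM in siNEG and 346, 365 and 365 CPM in media, for a log2 fold change of -2.07 (SE 0.05) between siEF and siNEG.

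**Figure D3:**
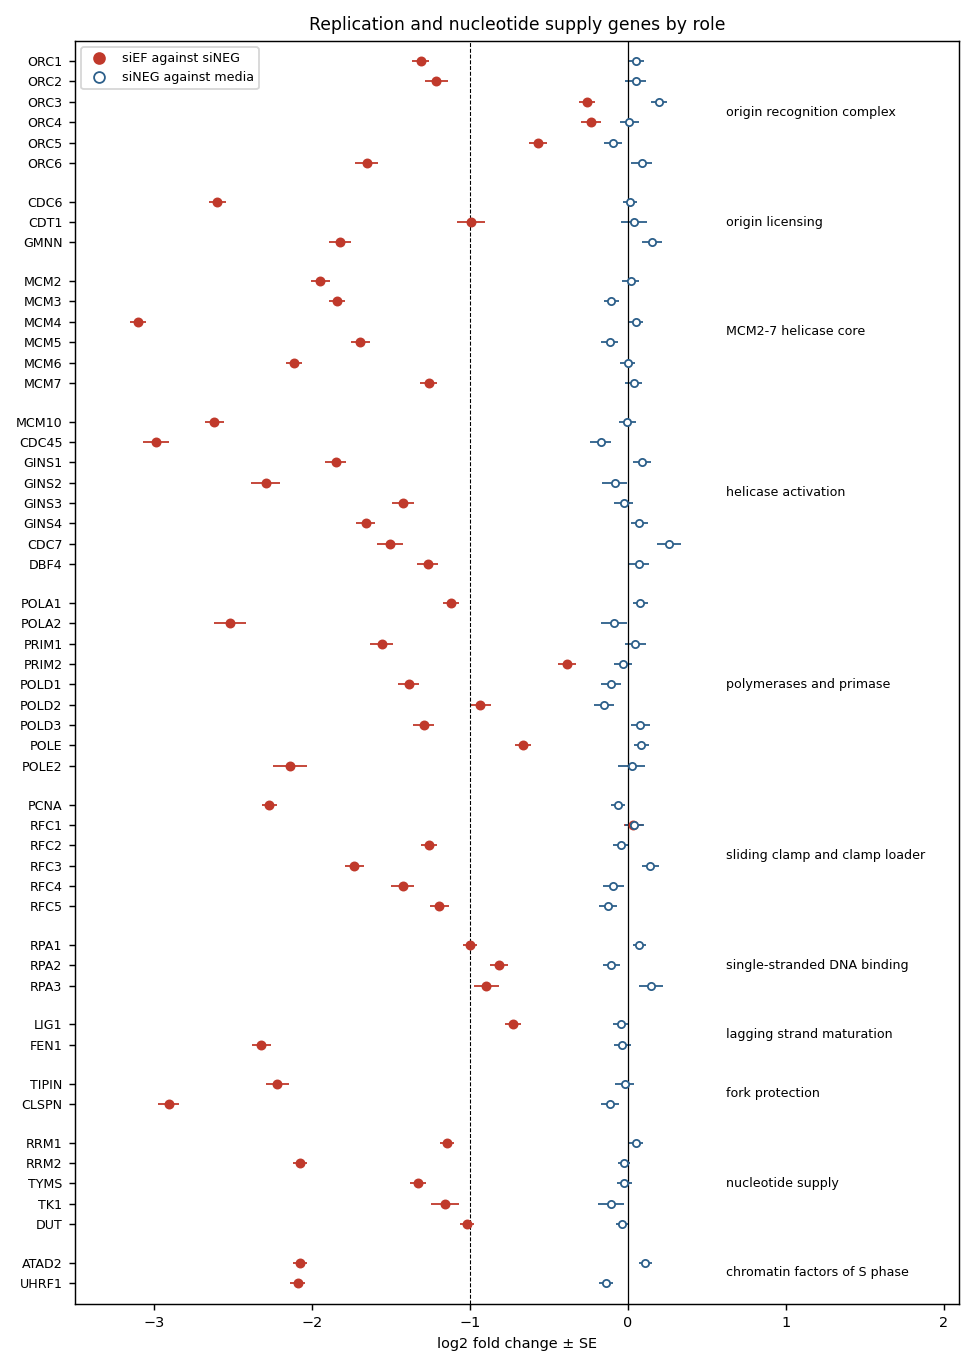
Log2 fold change ± SE (x axis) of each of the 52 genes (y axis, by role), for siEF against siNEG (filled) and siNEG against media (open), with a dashed line at -1. RFC1 is the single filled point above 0, and the open points all lie between -0.17 and 0.26.

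Ratios of 2 genes within a library do not depend on the scaling between libraries. Of 11 pairs compared, 8 were fixed and 3 were added after the values were seen. The 3 added pairs were RFC1 to RFC3, MCM7 to MCM4 and ORC4 to ORC1, and their separation follows from that choice. How often other pairs of genes separate was not counted. In all, 10 pairs had siEF ratios that did not overlap those of siNEG. Each of these had P = 0.1 in a two-sided exact permutation test, the smallest that 3 libraries against 3 can give, and P = 0.11 after Benjamini-Hochberg adjustment over the 11 pairs of the exact permutation tests, so none could reach 0.05. Beyond the pairs above, the log2 ratio of CDC6 to ORC1 changed by -1.29 between siEF and siNEG, that of MCM10 to MCM2 by -0.67, that of MCM7 to MCM4 by 1.84 and that of ORC4 to ORC1 by 1.08. The last 2 pairs were chosen after the values were seen. TK1 to DUT differed by -0.14 (P = 0.4, exact permutation test), with overlapping groups.

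**Figure D4:**
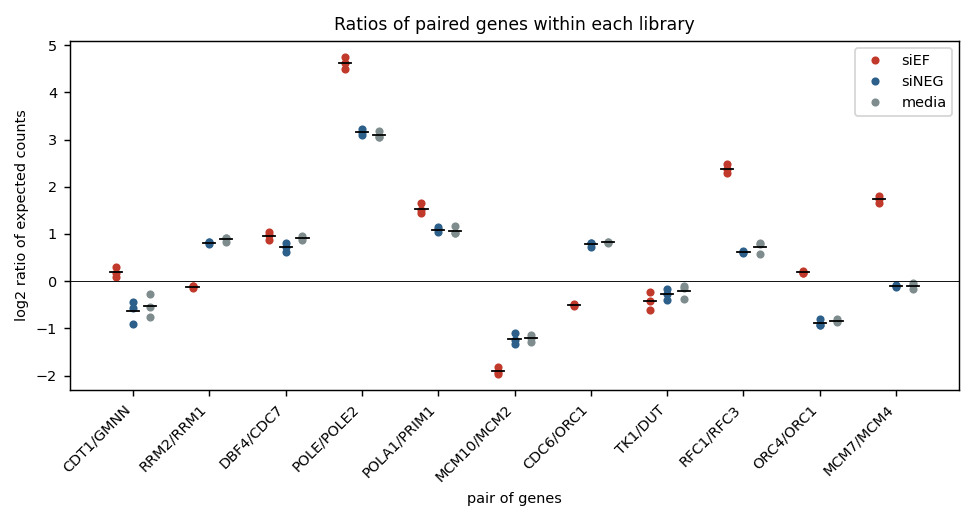
Log2 ratio of expected counts of 2 genes within each library (y axis; pairs on the x axis), with points for libraries and bars for the mean of 3, in siEF, siNEG and media. Among the pairs, TK1/DUT is the one whose siEF points overlap those of siNEG.

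The second comparison set siNEG against media. That control is labelled media alone, so the nonspecific siRNA and its delivery into the cells cannot be told apart here. Between siNEG and media, 0 of the 52 genes were lower and 0 higher at an adjusted P under 0.01 in edgeR, where 5.96% of all tested genes were lower and 3.83% higher. At an unadjusted P under 0.05, 10 of the 52 differed, where 30.3% of all tested genes did. DESeq2 called 0 members lower and 1 higher at an adjusted P under 0.01, where 8.85% of the 12714 genes it adjusted were lower and 6.19% higher. The median log2 fold change was 0.005. The extremes were CDC7 at 0.26 (adjusted P = 0.0258, edgeR) and CDC45 at -0.17 (adjusted P = 0.0846, edgeR). ORC3 had the smallest adjusted P of the 52, at 0.20 on the log2 scale (adjusted P = 0.0139, edgeR). CDC7 passed the threshold without media replicate 3, at 0.34 on the log2 scale (adjusted P = 0.00488, edgeR), and with no filter on low counts (adjusted P = 0.00333, edgeR).

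Against media instead of siNEG, a comparison that shares the siEF libraries with the first comparison, 50 of the 52 genes were lower in siEF and 0 higher (edgeR's quasi-likelihood test), against 32.3% and 33.6% of all tested genes. The median log2 fold change was -1.47. ORC3 did not pass here, at -0.059 on the log2 scale (adjusted P = 0.318, edgeR) against -0.26 with siNEG as the control, and siNEG itself stood at 0.20 over media. RFC1 was at 0.077 (adjusted P = 0.268, edgeR). MCM4 and CDC45, the genes with the largest falls against siNEG, had log2 fold changes of -3.05 and -3.16 against media.

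**Figure D5:**
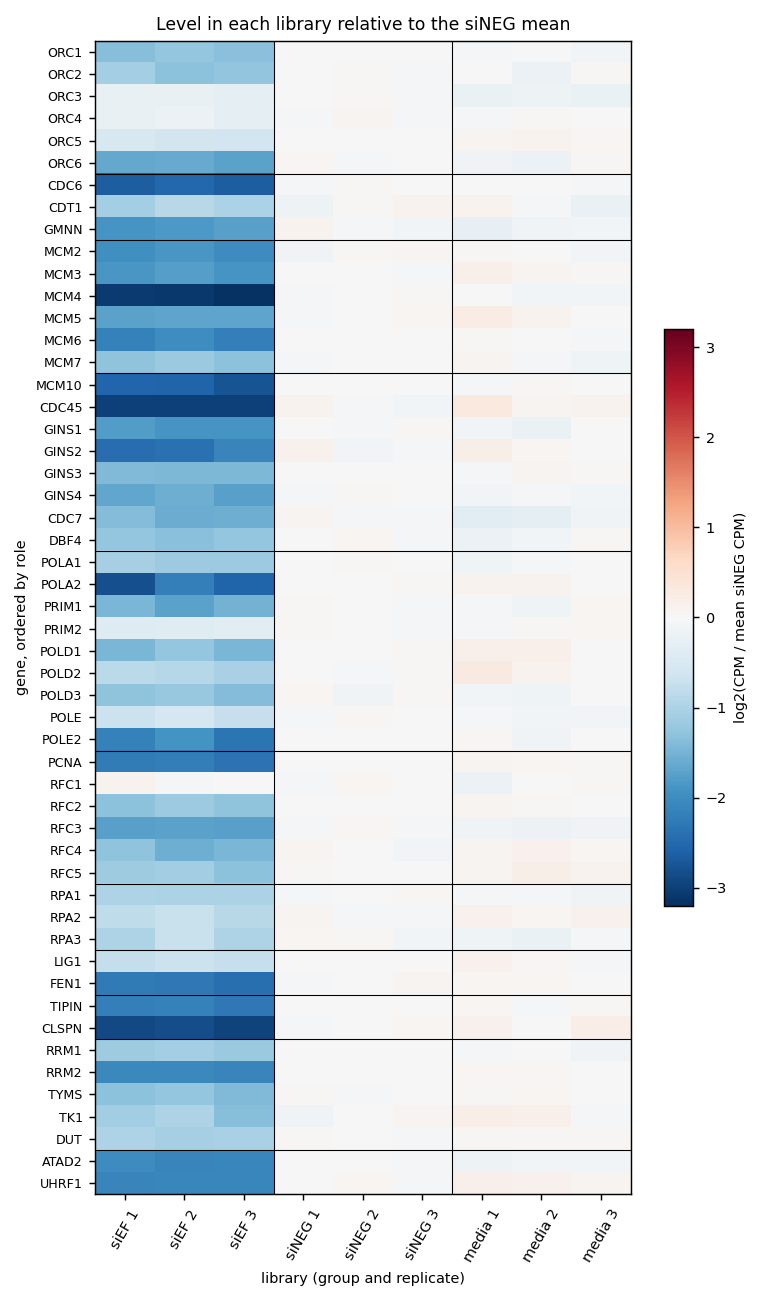
Log2 of the level in each library over the mean siNEG level (color, CPM ratio) for the 52 genes (rows, by role) in the 3 libraries of siEF, siNEG and media (columns). The siEF columns are lower in every row but that of RFC1, while siNEG and media columns stay close to 0.

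The members whose promoters held the E2F letters had a median of -1.83 on the log2 scale for siEF against siNEG, and the 21 without them one of -1.26. Over all tested genes with a promoter, members included, the medians were -0.20 with and 0.050 without the letters. The members' medians were -1.65 with and -1.36 without the CCAAT box, and -1.31 with and -1.69 without GGGCGG. They were -1.42 with and -1.45 without the ETS letters, and -1.14 with and -1.47 without TTTGAA. A link between any of these letters and the size of the fall was not tested. The E2F letters also occurred in members with small falls and were missing from some with large ones. ORC3 and POLE, with log2 fold changes of -0.26 and -0.66, held them, while CDC45, MCM10 and FEN1, at -2.99, -2.62 and -2.32, did not hold them in this window. Only exact matches were searched. CDC45 and MCM10 held TTTGGCGG, which differs from TTTGGCGC in its last letter, and such near matches were not counted for any gene. No promoter was matched for MCM4, MCM5, GINS4, POLD3, RPA2, RPA3 and ATAD2.

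Other genes of the pathway were taken from lists by function, chosen with earlier results of these data known. Of 32 other replication factors, 27 were lower and 2 higher in siEF than in siNEG at an adjusted P under 0.01 in edgeR. For all tested genes these shares were 31.7% and 33.6%, and the median log2 fold change of the 32 was -1.19. DNA2, a nuclease-helicase of Okazaki fragments, fell most, from 53.3 ± 1.76 CPM (SD, n = 3) to 8.50 ± 1.12 CPM (SD, n = 3), a log2 fold change of -2.66 (SE 0.08). The subunits of chromatin assembly factor 1, CHAF1A and CHAF1B, had log2 fold changes of -2.10 (SE 0.05) and -2.00 (SE 0.07), and DNMT1, the maintenance methyltransferase, one of -1.84 (SE 0.04). POLD4, the small accessory subunit of polymerase delta, rose most, from 4.66 ± 0.912 CPM (SD, n = 3) to 19.6 ± 1.15 CPM (SD, n = 3), or 2.07 (SE 0.13) on the log2 scale, with an adjusted P of 4.13e-10 (edgeR), while POLD1, POLD2 and POLD3 fell. CHTF8, a subunit of an alternative clamp loader, was the other gene that rose, with 0.40 (SE 0.06). Between siNEG and media, 0 of the 32 were lower and 2 higher, against 5.96% and 3.83% of all tested genes. The 2 were DNA2 at 0.30 and DONSON at 0.29. MCM9, RNASEH2B and POLE4 did not pass between siEF and siNEG, at -0.096, -0.016 and 0.25.

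Of 32 other genes of nucleotide synthesis, 25 were lower and 3 higher in edgeR at the same threshold, against 31.7% and 33.6% of all tested genes. The median log2 fold change of the 32 was -1.18. IMPDH1, an isozyme of the guanine branch, fell most, from 321 ± 4.95 CPM (SD, n = 3) to 51.6 ± 2.80 CPM (SD, n = 3), a log2 fold change of -2.64 (SE 0.05), while its isozyme IMPDH2 was at -0.71 (SE 0.05). UMPS, the last enzyme of UMP synthesis, was at -2.51 (SE 0.07), PNP, a purine salvage enzyme, at -2.23 (SE 0.06) and DCK, the deoxycytidine kinase, at -2.10 (SE 0.10). CTPS2 rose most, from 28.99 ± 1.65 CPM (SD, n = 3) to 60.4 ± 1.14 CPM (SD, n = 3), or 1.06 (SE 0.06) on the log2 scale, with an adjusted P of 6.09e-11 (edgeR), and its isozyme CTPS1 was at -1.66 (SE 0.05). The mitochondrial thymidine kinase TK2 rose with 0.47 (SE 0.09) and the deaminase DCTD with 0.63 (SE 0.06). Between siNEG and media, 0 of the 32 were lower and 4 higher, against 5.96% and 3.83% of all tested genes. The 4 were TK2 at 0.51, CMPK1 at 0.45, IMPDH1 at 0.21 and ADSL at 0.19, so that TK2 was already higher in siNEG than in media. RRM2B, the small reductase subunit used outside S phase, did not pass between siEF and siNEG, at 0.14 (SE 0.07) with an adjusted P of 0.0607 (edgeR), beside -2.08 for RRM2. Apart from the extremes of each list, the genes of these 2 paragraphs were named after their values were seen.

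Markers of later cell cycle phases were also lower in siEF. All 22 genes of G2 and mitosis were lower than in siNEG in edgeR at the same threshold, against 31.7% of all tested genes. The 22 had a median log2 fold change of -1.06 and a range from -2.57 for the kinase PLK1 to -0.42 for the kinetochore gene NDC80. Between siNEG and media, 4 of the 22 were lower and 0 higher, against 5.96% and 3.83% of all tested genes. In that comparison 0 of the 52 members were called. The part of the 22 genes in the values of the replication genes was not tested.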

How the data were processed

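RNA of TC32 cells was sequenced in 3 groups of 3 libraries. The labels name polyadenylated RNA together with a small RNA library kit. According to the methods, the authors mapped reads to hg38 with STAR 2.7.1a and RSEM 1.3.1 gave the expected counts that they deposited for each gene, without depth scaling. The annotation release and strand setting are not given in the sources used here. All 9 columns of values were used, and groups and replicate numbers came from the titles.

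After rounding, filterByExpr kept 16093 genes. TMM factors set the library sizes, and edgeR 4.0.16 (R 4.3.3) fitted a quasi-likelihood model with a mean for each group and 1 spread for all 9 libraries. P values were adjusted over all tested genes. The SE is the absolute log2 fold change over the root of F. Ratios used a pseudocount of 0.5 and scipy 1.17.1. CPM use TMM-scaled library sizes. Levels per kilobase use the canonical transcript of GENCODE 44. The labels call the replicates biological without saying whether they are separate cultures, and P values measure the spread between these libraries.

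Members and lists were chosen with earlier results of these data known. All members may be named. The values of 1 further gene are not reported here. The values of each library were given for the members past the fold cut-off in any comparison, the extremes of each role and, outside this rule, ORC3. ADSS2 and 1 mitosis gene were matched by Ensembl identifier. Alternatives were DESeq2 1.42.0, other scalings, filters and thresholds, a fit on the compared libraries alone, a block for the replicate number and each library left out.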

Additional observations from a re-analysis of the deposited data

How the results depend on the processing

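The number of members lower in siEF than in siNEG stayed between 48 and 51 and the number past the fold cut-off between 39 and 42 under all alternatives, 0 members rose in any of them, and the replicate block gave 51 lower members and 40 past the cut-off, with no other call changed. Same-numbered libraries did not all deviate together, with correlations across genes between -0.27 and 0.33, so the numbers were not taken as pairs. The median log2 fold change of the members was -1.34 against siNEG and -1.37 against media with upper quartile scaling, which raised the median of all genes from 0.046 to 0.13. RFC1 had a log2 fold change of -0.0050 with no filter on low counts, and of -0.0107 without siEF replicate 1 and -0.016 without siNEG replicate 1, so its sign depended on these choices (over all libraries left out, between -0.016 and 0.067).

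Between siNEG and media, 1 member was higher with DESeq2, a minimum of 10 counts per library, no filter on low counts or upper quartile scaling, and 0 to 1 with a library left out. At an adjusted P under 0.05, 1 member was lower and 2 were higher. The median of the members there was 0.018 with upper quartile scaling, 0.011 with no filter, 0.0168 with at least 10 counts in every library and between -0.016 and 0.019 with a library left out.

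Of the other replication factors, 1 was higher when tested against a 1.2-fold change, and of the other nucleotide synthesis genes 5 were higher with upper quartile scaling. Tested against a 1.2-fold change, ORC3, ORC4 and PRIM2 no longer passed, a stricter question by construction. The ratios within libraries moved by less than 1 SD with a pseudocount of 5 or a library left out. Each library was left out for the members' counts and medians in the 3 comparisons, the members' fold changes between siEF and siNEG, those of CDC7 and CDC45 between siNEG and media, and the counts of the other lists between siEF and siNEG. It was not run for single genes of siEF against media or of the other lists.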
